A study of Mus musculus with 7 samples.

Results

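The genes described here are 10 members of the cascade that carries cortical progenitors to glutamatergic neurons. They are the proneural genes Neurog1 and Neurog2, the intermediate steps Gadd45g, Mfng, Insm1, Btg2 and Eomes, and the NeuroD genes Neurod1, Neurod2 and Neurod6. They were chosen by name, as the steps that lead to Neurod6, the locus behind the Nex-Cre driver, and are 10 of 19936 genes with a single-symbol probe set. Each of the 10 had 1 probe set with that single symbol, and all 10 passed the filter on dim signals, among 16144 genes tested.

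RNA came from whole neocortex of C57BL/6 mice and was measured on 7 arrays, 1 per sample. Of these, 4 samples were CKO, whose genotype the labels write as COUP-TFI_Nex-Cre, and 3 were wild type (WT). The labels do not say how many copies of each allele the CKO mice carried, whether the WT mice carried any of these alleles, or whether each array was a separate animal, and no age or sex was found in them. P-values here thus reflect sample-to-sample spread alone, which could be technical.

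In the developing neocortex, apical progenitors raise Neurog2 and, in part, Neurog1 as they commit to making neurons. Intermediate progenitors, which divide away from the ventricle, express Eomes (Tbr2) with Insm1 and Btg2. Neurod1 follows in late intermediate progenitors and newborn neurons, and Neurod2 and Neurod6 (also called Nex) stay on in differentiated glutamatergic neurons. Nex-Cre mice express Cre from the Neurod6 locus, so recombination falls mainly in postmitotic glutamatergic neurons, downstream of most of this cascade. COUP-TFI is the nuclear receptor encoded by Nr2f1.

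The 2 members whose groups did not overlap, Neurod6 and Neurod1, lay on opposite sides of the comparison. Of all genes, 5.39% were higher and 2.99% lower in CKO without overlap, so such a separation is not particular to these 2. The 250 bases before the RefSeq start of each are shown (GRCm38.p6) because these are the cascade genes whose signals separated the genotypes. Capitals mark the E-box letters CANNTG, the core that bHLH factors such as the NeuroD and neurogenin proteins recognise. The Neurod6 stretch is chr6:55681264-55681513 and the Neurod1 stretch is chr2:79456637-79456886, both on the minus strand.
Neurod6: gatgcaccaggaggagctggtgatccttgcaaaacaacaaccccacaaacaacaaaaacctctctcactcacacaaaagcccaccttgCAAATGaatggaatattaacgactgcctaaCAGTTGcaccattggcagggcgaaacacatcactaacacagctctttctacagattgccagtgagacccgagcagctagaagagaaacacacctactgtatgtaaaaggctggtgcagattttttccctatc
Neurod1: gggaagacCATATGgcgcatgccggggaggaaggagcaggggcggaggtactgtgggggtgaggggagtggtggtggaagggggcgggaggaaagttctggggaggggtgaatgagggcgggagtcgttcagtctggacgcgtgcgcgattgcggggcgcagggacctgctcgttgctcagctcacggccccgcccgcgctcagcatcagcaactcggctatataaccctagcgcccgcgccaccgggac
Neurod6 held 2 such matches, CAAATG and CAGTTG, beginning 162 and 132 bases before the start. Neurod1 held 1, CATATG, beginning 242 bases before it. RefSeq promoter windows were matched for 8 of the 10 genes, all but Insm1 and Mfng. Of these 8, 4 held CANNTG in the 250 bases before the start, against 66.2% of 32851 windows of the same length in the mouse table. The motif reads the same on both strands. CAGATG, a form of it searched on both strands (CATCTG on the other), was in 1 of the 8, that of Neurod2, and in 14.4% of all windows. A match is a description of letters and not a measured binding site.

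Neurod6 had the lower signal in CKO and Neurod1 the higher, while Neurod2 had nearly equal means in both groups. The other 7 genes were slightly higher in CKO, by 0.03 to 0.13 on the log2 scale, with groups that overlapped. No member passed an adjusted p of 0.05 over all genes with limma, a threshold that 0.0248% of genes passed. In whole tissue, fewer cells of a type and less RNA per cell cannot be told apart.

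**Figure D1:**
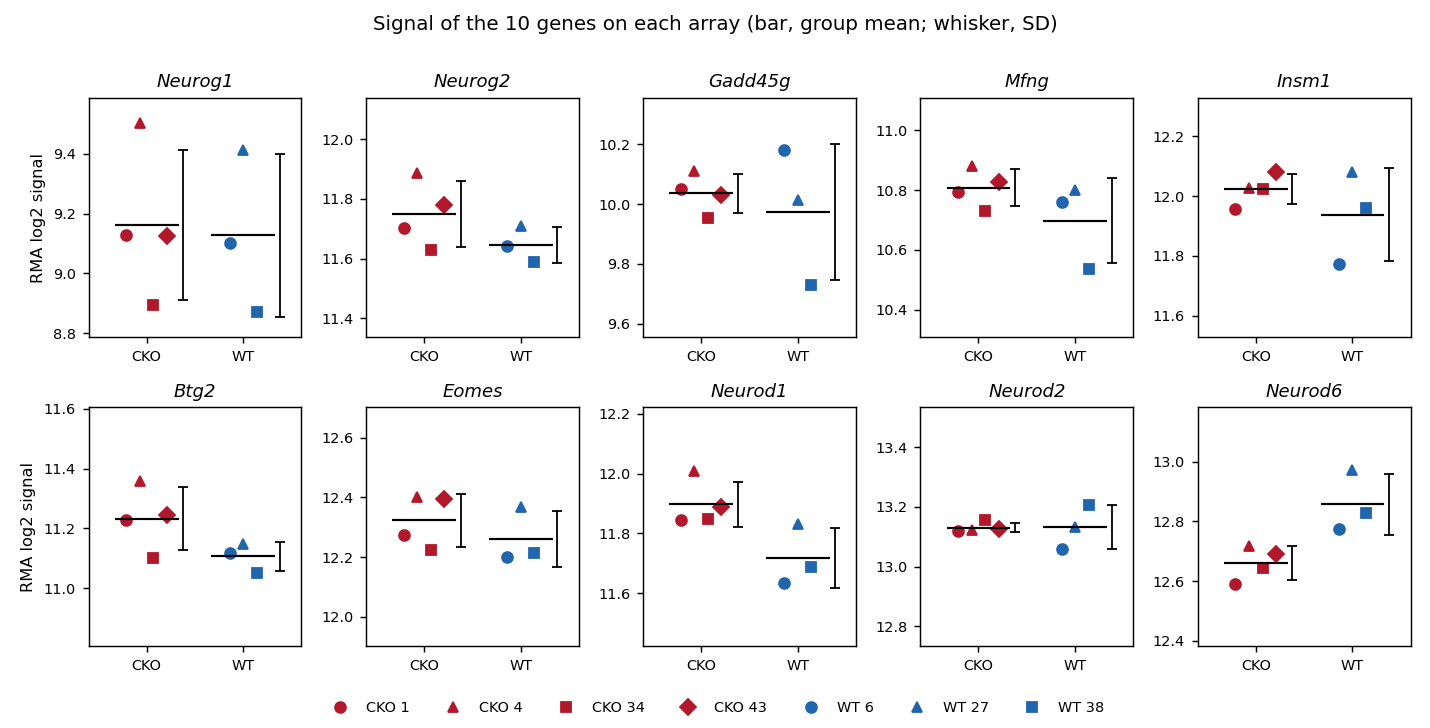
RMA log2 signal of the 10 genes on each of the 7 arrays, with every panel spanning the same width of log2 signal. Points are arrays, bars are group means and whiskers are SDs (n = 4 CKO, n = 3 WT). The groups are apart for Neurod1, higher in CKO, and for Neurod6, lower in CKO, and CKO 4 and WT 27 (triangles) sit at the top of their group in most panels.

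Among the proneural genes, Neurog2, the main initiator of glutamatergic neurogenesis in the cortex, was measured by probe set 10495964. Its log2 signal was 11.70 on CKO 1, 11.89 on CKO 4, 11.63 on CKO 34 and 11.78 on CKO 43, against 11.64 on WT 6, 11.71 on WT 27 and 11.59 on WT 38. CKO 4 was the highest array and WT 38 the lowest, and CKO 1 and CKO 34 lay within the WT range. The difference was 0.10 (SE 0.064, limma adjusted p 0.752), with a 95% interval of -0.05 to 0.25, and 0.06 without CKO 4. Neurog1 (probe set 10409575), the related factor that acts in a narrower set of cortical progenitors, had 9.13, 9.50, 8.90 and 9.13 on CKO 1, CKO 4, CKO 34 and CKO 43, and 9.10, 9.41 and 8.87 on WT 6, WT 27 and WT 38. It varied most of the 10 genes over the arrays, with an SD of 0.238. The difference of 0.03 (SE 0.158, 95% interval -0.33 to 0.40) was small beside that spread. It turned to -0.08 without CKO 4 and to -0.10 without WT 38.

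Gadd45g, a gene of the growth arrest and DNA damage family that is switched on as progenitors leave the cycle, was measured by probe set 10405211. It had 10.05, 10.11, 9.95 and 10.03 on CKO 1, CKO 4, CKO 34 and CKO 43. On the WT arrays it ran from 9.73 on WT 38 through 10.01 on WT 27 to 10.18 on WT 6, so WT spanned the whole CKO range. The difference was 0.06 (SE 0.097, limma adjusted p 0.886), and it turned to -0.06 without WT 38. Mfng, or manic fringe, a glycosyltransferase that modifies Notch receptors, was measured by probe set 10430389. Its signal was 10.79, 10.88, 10.73 and 10.83 on the CKO arrays in the same order, and 10.76, 10.80 and 10.54 on WT 6, WT 27 and WT 38. WT 38 alone was far below the rest, and without it the difference went from 0.11 (SE 0.069) to 0.03.

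Insm1, a zinc finger factor that promotes the formation of basal progenitors, was measured by probe set 10476814. It had 11.96, 12.03, 12.03 and 12.08 on CKO 1, CKO 4, CKO 34 and CKO 43, and 11.77, 12.08 and 11.96 on WT 6, WT 27 and WT 38. WT 6 was the low array here, and without it the difference went from 0.09 (SE 0.071) to 0.003. Btg2, the antiproliferative gene also called Tis21 that marks progenitors about to make neurons, was measured by probe set 10357875. It had 11.23, 11.36, 11.10 and 11.24 on the CKO arrays and 11.12, 11.15 and 11.05 on WT 6, WT 27 and WT 38. Of the CKO arrays CKO 34 alone lay within the WT range, and the difference was 0.13 (SE 0.061, limma adjusted p 0.727), with a 95% interval of -0.01 to 0.27.

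Eomes, the T-box factor that defines intermediate progenitors, was measured by probe set 10589994. Its signal was 12.27, 12.40, 12.22 and 12.39 on CKO 1, CKO 4, CKO 34 and CKO 43, and 12.20, 12.37 and 12.21 on WT 6, WT 27 and WT 38. WT 27 lay above CKO 1 and CKO 34, so the groups were interleaved. The difference was 0.06 (SE 0.063, limma adjusted p 0.826), with a 95% interval of -0.08 to 0.21. It went to 0.12 without WT 27 and to 0.03 without WT 6.

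Neurod1, the NeuroD factor of late intermediate progenitors and newborn neurons, was measured by probe set 10484276. It had 11.85, 12.01, 11.85 and 11.89 on CKO 1, CKO 4, CKO 34 and CKO 43, and 11.64, 11.83 and 11.69 on WT 6, WT 27 and WT 38. All CKO arrays lay above all WT arrays, but the gap between CKO 1 and WT 27 was narrow. Group means were 11.90 ± 0.076 for CKO (SD, n = 4) and 11.72 ± 0.101 for WT (SD, n = 3). CKO exceeded WT by 0.18 (SE 0.061), 1.13 times on the linear scale, with a 95% interval of 0.04 to 0.32 and a limma adjusted p of 0.711. Of all genes, 5.39% were likewise higher in CKO without overlap. Of 6 markers tested of the dentate gyrus and hippocampus, where Neurod1 is also strongly expressed, 0 had an unadjusted limma p under 0.05. Over all genes the share was 6.79%, so a count of 0 among 6 is near it and says little. The differences of the 6 markers ran from -0.04 to 0.10, with a median of 0.02. Of the 6, 5 were positive, against 58.9% of all genes. The part of hippocampal tissue in the Neurod1 difference was not tested. The mean of these 6 markers per array, relative to the 7-array mean, ran from -0.04 to 0.09 in CKO and from -0.05 to 0.04 in WT.

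Neurod2, a factor of maturing cortical neurons, was measured by probe set 10390618. It had 13.12, 13.12, 13.16 and 13.13 on CKO 1, CKO 4, CKO 34 and CKO 43, and 13.06, 13.13 and 13.21 on WT 6, WT 27 and WT 38. It varied least of the 10 genes, with an SD of 0.0436 over the arrays, and the CKO arrays lay inside the WT range. The difference was -0.002 (SE 0.043), and the 95% interval of -0.10 to 0.10 held only small differences in RMA signal. How closely this signal follows transcript amount was not tested.

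Neurod6, the driver gene, was measured by probe set 10544936. It had 12.59, 12.72, 12.65 and 12.69 on CKO 1, CKO 4, CKO 34 and CKO 43, and 12.77, 12.97 and 12.83 on WT 6, WT 27 and WT 38. The highest CKO array, CKO 4, lay just below the lowest WT array, WT 6. Group means were 12.66 ± 0.056 for CKO (SD, n = 4) and 12.86 ± 0.103 for WT (SD, n = 3). CKO minus WT was -0.20 (SE 0.057), a linear ratio of 0.873, with a 95% interval of -0.33 to -0.07 and a limma adjusted p of 0.711. The two-sided exact permutation p of 0.0286 is the smallest that these 7 arrays allow and follows from the lack of overlap, so it adds nothing to it. Of all genes, 2.99% were lower in CKO without overlap. Which part of the Neurod6 or Nr2f1 transcript each probe set covers was not determined here, so neither reading checks how much of a modified allele is transcribed. The CKO genotype includes the driver allele at the Neurod6 locus, and the part of that allele in the Neurod6 difference was not tested. Nr2f1, the targeted gene, ran from 10.60 to 10.79 in CKO and from 10.88 to 11.16 in WT, a difference of -0.36 (SE 0.074, limma adjusted p 0.435).

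Counted together, 8 of the 10 genes had a positive difference, against 58.9% of all genes. An unadjusted limma p under 0.05 was reached by 2 of the 10, Neurod6 and Neurod1, against 6.79% of all genes. The median difference was 0.07 over the 10 genes and 0.01 over all genes. Mean signals ran from 9.15 for Neurog1 to 13.13 for Neurod2, but probe sets differ in how strongly they bind, so this order is not an order of transcript abundance.

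**Figure D2:**
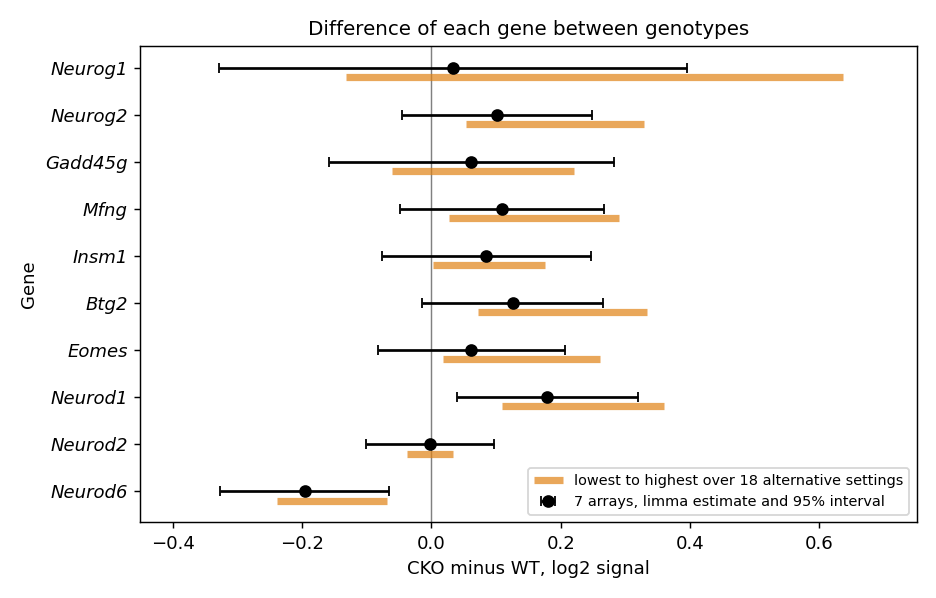
CKO minus WT difference in log2 signal for each gene, in the order of the cascade. Points and whiskers are limma estimates with 95% intervals over 7 arrays, and orange bars span the lowest to highest value over 18 alternative settings. The intervals of Neurod1 (0.04 to 0.32) and Neurod6 (-0.33 to -0.07) lie on one side of 0, and those of the other 8 genes cross it.

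The order of the arrays was shared by most of the cascade. Among the 8 genes with a positive difference, all but Neurod2 and Neurod6, CKO 4 was the highest CKO array for 7 of the 8 genes and WT 27 the highest WT array for 7 of the 8. The exceptions were Insm1, highest on CKO 43 among CKO arrays, and Gadd45g, highest on WT 6 among WT arrays. Neurod6 was likewise highest on CKO 4 among CKO arrays and on WT 27 among WT arrays. This was not particular to the cascade. Of the lists read below, the same arrays had the highest means for Notch pathway, Neurog2 target, postmitotic neuron, apical progenitor, neocortex and red blood cell genes. The remaining lists did not have both arrays at the top. The share of all genes with this order was not counted. At the low end, CKO 34 was lowest of its group for 6 of the 8 genes and WT 38 for 5 of the 8. Averaged over the 8 genes and set relative to the 7-array mean, CKO 1 stood at 0.01, CKO 4 at 0.16, CKO 34 at -0.06 and CKO 43 at 0.06. WT 6 stood at -0.06, WT 27 at 0.06 and WT 38 at -0.16. The groups thus overlapped on this average, and arrays within a genotype differed more than the genotype means of 0.04 and -0.05, whose direction follows from the choice of the 8.

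Averaged by list, striatal markers and markers of interneurons and the ganglionic eminence ran the other way along the same arrays. The source of these signals within the tissue was not tested. The 8 striatal markers tested averaged -0.06 on CKO 4, while the remaining CKO arrays had 0.14 to 0.41. In WT they averaged -0.37 on WT 27, below WT 6 at -0.19 and WT 38 at -0.15. The 8 interneuron and ganglionic eminence markers averaged -0.21 on CKO 4, while the remaining CKO arrays had 0.19 to 0.28. In WT they averaged -0.32 on WT 27, below WT 6 at -0.12 and WT 38 at -0.02. On these list means, the arrays with the least signal in each genotype were therefore those with the most signal of the cascade. Single markers did not all follow. Ppp1r1b and Drd1 were highest of their group on CKO 4 and WT 27, as most of the cascade was. Penk and Lhx6 were highest on WT 27 among WT arrays. Isl1, a factor of striatal projection and cholinergic neurons, had 8.86, 7.74, 8.70 and 8.73 on CKO 1, CKO 4, CKO 34 and CKO 43, and 7.91, 7.23 and 7.89 on WT 6, WT 27 and WT 38. CKO 4 was thus within the WT range for Isl1. No detection calls were used, so presence or absence of a dim marker cannot be read. All 8 striatal markers were higher in CKO (median 0.35), a direction shared by 58.9% of all genes. Among them 5 had an unadjusted limma p under 0.05, against 6.79% of all genes. Isl1 had the largest difference, 0.83 (SE 0.281), and Ppp1r1b the smallest p, at a difference of 0.43 (SE 0.068). Of the 8 interneuron and eminence markers 7 were positive, with a median of 0.30, and 3 had an unadjusted limma p under 0.05. Dlx2 had the largest difference, 0.51 (SE 0.178), and Dlx5 the smallest p, at 0.39 (SE 0.116).

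**Figure D3:**
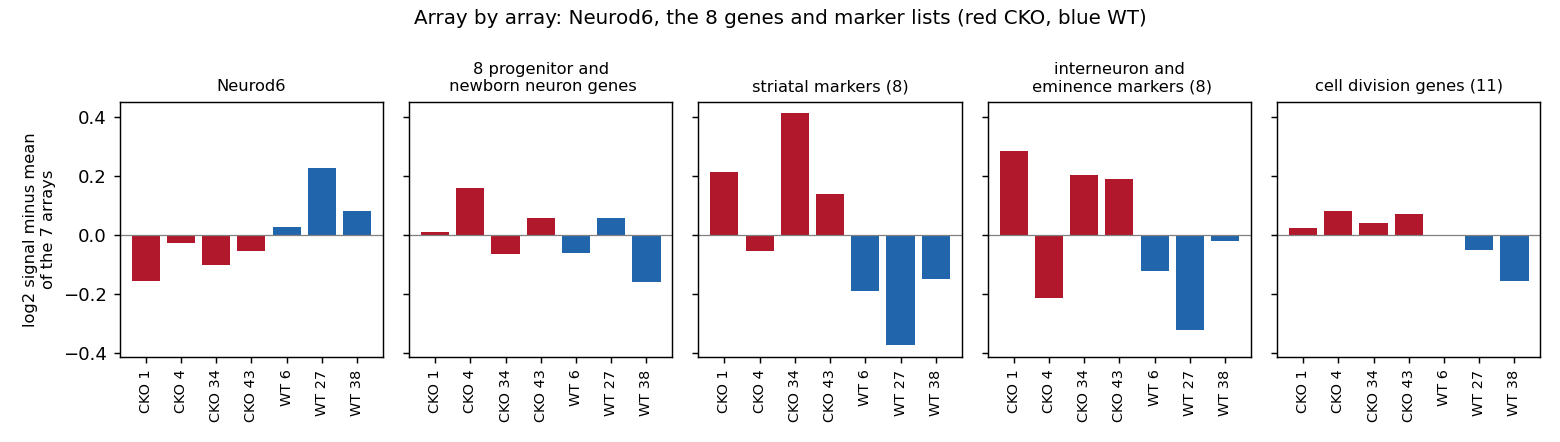
Log2 signal relative to the mean of the 7 arrays for Neurod6, the mean of the 8 cascade genes other than Neurod2 and Neurod6, and the means of 3 marker lists (8 striatal, 8 interneuron and eminence, 11 cell division genes), with 1 bar per array. CKO 4 and WT 27 are the lowest arrays of their group for the striatal and interneuron lists and the highest for Neurod6 and for the 8 genes.

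With the striatal mean as a covariate in the fit, the 8 genes moved further up and Neurod6 moved towards 0. Neurod1 went from 0.18 to 0.36, Neurog2 from 0.10 to 0.33, Btg2 from 0.13 to 0.33, Eomes from 0.06 to 0.26 and Neurog1 from 0.03 to 0.64. Neurod6 went from -0.20 to -0.07. None of these passed the adjustment over all genes with limma, where the smallest adjusted p among the 10 was 0.376. An unadjusted limma p under 0.05 was reached by 6 of the 10, against 9.92% of all genes in the same fit. Neurod6 was no longer among them; they were Neurod1, Neurog1, Neurog2, Eomes, Mfng and Btg2. The striatal mean itself lay higher in all CKO arrays (-0.06 to 0.41) than in all WT arrays (-0.37 to -0.15), so the covariate and the genotype overlap in what they describe. Within each genotype it ran against the cascade, as described above. The upward direction of these shifts follows from that order of the arrays, so they restate it and add no support. The part of dissection or cell makeup in the differences was not tested.

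No label names a batch, and the meaning of the array identifiers is not stated. Arrays were grouped by a shared stretch of their identifiers, and each group is called a lot here for short. Only lot 2 held both genotypes, with CKO 34, CKO 43, WT 27 and WT 38. Within lot 2 Neurod6 differed by -0.23 and Neurod1 by 0.11. The other differences there were 0.12 for Gadd45g, 0.11 for Mfng, 0.07 for Btg2, 0.05 for Neurog2, 0.03 for Insm1, 0.02 for Eomes, -0.03 for Neurod2 and -0.13 for Neurog1. Neurod1 no longer reached an unadjusted limma p under 0.05 within lot 2, while Neurod6 did. Neurod1 also missed it without WT 6, where its difference was 0.14, and without WT 38, where it was 0.16.

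Genes that act before and beside the cascade were read as lists in the same fit. No member of any list passed over all genes with limma. The counts for these lists and those below stand beside 58.9% of all genes with a positive difference. Over all genes, 6.79% had an unadjusted limma p under 0.05. In the Notch pathway, which holds neighbouring progenitors back from differentiating, 12 of 18 genes had a positive difference and the median was 0.06. Of these, 3 had an unadjusted limma p under 0.05, all higher in CKO: the receptor genes Notch3 (0.18, SE 0.067) and Notch1 (0.12, SE 0.046), and Dll3 (0.16, SE 0.071), a ligand of the Delta family. Notch1 ran from 11.83 to 11.89 in CKO and from 11.67 to 11.83 in WT. Dll1, the Delta ligand activated by Neurog2, differed by 0.13 (SE 0.085), and its effectors Hes5 and Hes1 by 0.14 (SE 0.111) and 0.04 (SE 0.108). Among 11 bHLH partners and inhibitors, which include the E proteins and Id genes, 8 were positive and 0 had an unadjusted limma p under 0.05. The E protein gene Tcf3 (0.09, SE 0.047), Olig2 (0.27, SE 0.138) and the inhibitor gene Id4 (0.16, SE 0.086) had the smallest p-values.

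Genes that follow the cascade were mixed in direction. Of 13 targets of Neurog2 and genes of newborn neurons, 8 were positive, against 58.9% of all genes, with a median of 0.04. Nhlh1, a bHLH gene of newborn neurons, had the widest difference among them, 0.46 (SE 0.140), with 10.90, 11.11, 10.60 and 10.79 on CKO 1, CKO 4, CKO 34 and CKO 43 and 10.31, 10.67 and 10.20 on WT 6, WT 27 and WT 38. CKO 4 and WT 27 were the highest arrays of their genotype, as for most of the cascade. Rnd2, a small GTPase of radial migration under the control of Neurog2, differed by 0.26 (SE 0.106). Lzts1, which promotes delamination of differentiating cells, was lower in CKO by -0.11 (SE 0.039). Elavl4, a neuronal RNA-binding protein gene, differed by 0.07 (SE 0.034). Of 13 genes of postmitotic excitatory neurons, 6 were positive, with a median of -0.03. Tbr1, the T-box factor that follows Eomes in early neurons, differed by 0.14 (SE 0.057), Bcl11b by 0.15 (SE 0.040) and Sox5 by -0.14 (SE 0.049).

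Differences were positive for all 11 apical progenitor genes (median 0.11), against 58.9% of all genes, though Vim and Fabp7 were at 0.003 and 0.005. An unadjusted limma p under 0.05 was reached by 3 of them, the transcription factor genes Sox2 (0.20, SE 0.048) and Emx2 (0.29, SE 0.093) and the homeodomain-only gene Hopx (0.15, SE 0.049). Within lot 2, 9 of the 11 were positive. All 11 cell division genes were also positive, with a median of 0.14. Among them 6 had an unadjusted limma p under 0.05, against 6.79% of all genes. The smallest p-values were those of the mitotic kinase gene Plk1 (0.19, SE 0.047), the topoisomerase gene Top2a (0.13, SE 0.042) and the proliferation marker Mki67 (0.16, SE 0.062). Without WT 38 the medians of these lists went to 0.06 and 0.08. Pax6, which activates Neurog2 and Eomes, differed by 0.14 (SE 0.064), with every CKO array above every WT array. WT 38 was the lowest array for both lists, at -0.10 and -0.16, as it was for 5 of the 8 cascade genes. Of 10 immediate early genes, set beside Btg2 and Gadd45g because both can also be induced by stimulation, 7 were positive with a median of 0.04 and 0 had an unadjusted limma p under 0.05; Nr4a1 (0.10, SE 0.052) had the smallest.

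Markers of other cells that the tissue could hold were read the same way. The 4 red blood cell genes tested averaged 0.16 on CKO 1, 0.37 on CKO 4, 0.03 on CKO 34 and -0.07 on CKO 43. In WT they averaged -0.03 on WT 6, 0.13 on WT 27 and -0.60 on WT 38. CKO 4 and WT 27 were thus the highest arrays of their genotype, as for most of the cascade. WT 38 was the lowest array, while the lowest CKO array was CKO 43 and not CKO 34. All 4 genes were higher in CKO (median 0.16), and 0 had an unadjusted limma p under 0.05. The 6 markers of meninges and choroid plexus all lay higher in CKO (median 0.22) and averaged -0.05 to 0.25 in CKO and -0.19 to 0.02 in WT. Among them 4 had an unadjusted limma p under 0.05, against 6.79% of all genes. The 6 Cajal-Retzius markers had a median of -0.01 and 0 had an unadjusted limma p under 0.05. The 5 microglia markers had a median of -0.03, and 1 of them, Aif1, had an unadjusted limma p under 0.05, at a difference of -0.36 (SE 0.110). Of the 3 tested markers that define the tissue, Emx1, a factor of the dorsal telencephalon, ran from 10.33 to 10.66 in CKO and from 10.40 to 10.47 in WT. Slc17a7, the vesicular glutamate transporter, ran from 10.39 to 10.62 in CKO and from 10.43 to 10.87 in WT. Tbr1 was higher in CKO without overlap, as were 5.39% of all genes, at 12.74 to 12.83 against 12.50 to 12.72 in WT. The part of these cells in the differences of the cascade was not tested.

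The genes whose array profile was most like that of Neurod6 were Slc26a8, Cntn2, Serpini1, Elfn2 and Vegfd. Likeness was the root mean square difference between profiles over the 7 arrays, each centred on its own mean, and it ran from 0.0319 for Slc26a8 to 0.0428 for Vegfd on the log2 scale. Cntn2, an axonal adhesion protein of the contactin family, had 12.72, 12.76, 12.78 and 12.78 on CKO 1, CKO 4, CKO 34 and CKO 43, and 12.82, 13.05 and 12.95 on WT 6, WT 27 and WT 38. As with Neurod6, its groups were apart and WT 27 was the highest array. Elfn2 differed by -0.25 (SE 0.045) and Serpini1, which encodes neuroserpin, by -0.20 (SE 0.049). For Neurod1 the most alike were Ltbp3, Erf, Ddr1, Creb5 and Cherp, with values from 0.0174 to 0.0234. Ltbp3, a binding protein of latent TGF-beta, had 10.51, 10.70, 10.51 and 10.60 on the CKO arrays and 10.31, 10.49 and 10.35 on the WT arrays in the same order, a difference of 0.20 (SE 0.064). Since these genes were picked for likeness to a member, their differences are a description.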

How the data were processed

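Expression was measured on 7 one-colour Affymetrix arrays, 4 CKO and 3 WT. The deposited values are RMA log2 signals. The submitters' processing notes name Affymetrix Expression Console without a version or genome build. RMA gives all arrays 1 shared distribution, so a change common to most genes would not show. No detection calls were used, so dim signals have no stated background.

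Of 35468 probe sets, 21786 had 1 symbol in the platform annotation, and 21695 of these matched the RefSeq gene table (GRCm38.p6) by Entrez identifier. Genes under the 25th percentile of mean signal (6.84) were left out and the brightest probe set stood for each gene, leaving 16144. CKO and WT were compared with limma 3.58.1 in R 4.3.3 (lmFit and eBayes without covariates; residual degrees of freedom 5, prior 3.28), with Benjamini-Hochberg adjustment over all genes at 0.05. Errors of differences are limma SEs. The fit was tested on simulated data. Promoter windows and E-box letters came from RefSeq. Figures used matplotlib 3.10.9.

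The 10 genes, the lists and the alternatives were chosen with earlier results of these data known. Named were the 10 genes, Nr2f1, the 3 genes of each list with the smallest p, list members without overlap, and the 5 genes most like Neurod6 and Neurod1. Not all named by rule are described, and Dll1, Hes1, Hes5, Emx1 and Slc17a7 were named for their roles. Alternatives covered normalization, filter, probe sets, variance model, array weights, array lot, a striatal covariate and leaving out each array. The number of arrays limits the precision.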

Additional observations from a re-analysis of the deposited data

Results flagged for a closer look

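Neurod2 on CKO 34, at a log2 signal of 13.155, stood apart from the other 3 CKO arrays, which lay between 13.12 and 13.13. Its gap to the nearest of them was 0.867 of the group's whole range, past Dixon's 95% limit for 4 samples. Chance gives such a gap in about 1 of 20 groups. The range itself was narrow, and the value lies inside that of the WT arrays (13.06 to 13.21).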

How the results depend on the processing

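Of 18 alternatives, none turned the sign of Neurod6, which ran from -0.24 without WT 6 to -0.07 with the striatal covariate, or that of Neurod1, which ran from 0.11 within lot 2 to 0.36 with the covariate. No member passed the adjustment over all genes with limma in any of them, where the smallest adjusted p was 0.353. The members with an unadjusted p under 0.05 went from 2 to 1 with lot as a fixed block or within lot 2, to 6 with the covariate, where Neurod6 dropped out, and to between 1 (without WT 6 or WT 38) and 3 when 1 array was left out. Members with a positive difference stayed between 7 and 9.

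Neurod2 turned to 0.007 with array weights and ran from -0.038 to 0.034 when 1 array was left out. Neurog1 turned to -0.076 with array weights and to -0.13 with lot as a fixed block or within lot 2, and ran from -0.095 to 0.176 when 1 array was left out. Gadd45g ran from -0.061 (without WT 38) to 0.165 (without WT 6). The cause was not tested.

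Over all genes, 4 passed the adjustment; 1 did with cyclic loess or array weights, 0 with the covariate, within lot 2 or with lot blocked, and 1 to 6 when 1 array was left out. At an unadjusted p under 0.05 there were 1096, against 611 with lot as a block, 486 within lot 2, 1602 with the covariate, and 617 (without CKO 4) to 1761 (without WT 38) without 1 array. Groups without overlap, 1353 in all, were 4903 within lot 2, where fewer arrays make this easier, and 1575 to 3748 without 1 array.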
